A study of Mus musculus with 18 samples.

Results

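Membrane transporters and channels were compared between mouse embryonic fibroblasts (MEFs) and pluripotent cells on Affymetrix mouse expression arrays. The members were drawn from the probe sets in the authors' lists of genes higher or lower than in MEFs whose symbol starts with Slc, Atp, Abc, Aqp, Kcn, Cacn, Scn, Clc, Clic, Trp and a letter, Gja, Gjb, Ano, Tmem or Mfsd. The members described here are 37 of the 45037 probe sets measured, or 37 of the 948 that the lists hold, of which 931 carry a symbol. The 37 probe sets stand for 28 genes. Of these, 21 probe sets of 16 genes are in the list of higher probe sets and 16 probe sets of 12 genes are in the list of lower ones. No gene with the prefix Atp, Kcn, Scn, Clc, Clic, Trp, Gja, Ano or Mfsd was in either list. The lists had been made by asking for at least a 10-fold difference from the MEF mean in all 15 other arrays, so every value set against MEFs is a description of how the members were chosen and carries no test. Tests were run between the 15 arrays of pluripotent cells, which the lists did not compare with each other.

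Cells move water, sugars, amino acids and ions across their membranes through carriers of the solute carrier (Slc) families, through pumps of the ATP-binding cassette (Abc) family, and through pores such as aquaporins, voltage-gated calcium channels and the connexins of gap junctions. Which of these proteins a cell makes depends on its type. Fibroblasts are mesenchymal cells of connective tissue, whereas embryonic stem cells grow as compact colonies of epithelial character that are joined by gap junctions. The Tmem prefix only says that a protein is predicted to cross the membrane, so not all of its members are known to carry a solute.

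The 18 arrays fall into 5 groups. MEFs (3 samples) came from E13.5 embryos and were used within the first few passages. Mouse embryonic stem cells (mESCs) were measured as 3 clones, and induced pluripotent stem cells (iPSCs) as 4 clones for each way of reprogramming. All 18 samples, the mESCs included, are labelled as B6.Cg-Gt (ROSA) 26Sortm1 (rtTA*M2), laboratory code Jae/J, which carries a doxycycline-controlled transactivator at the Rosa26 locus, together with B6.129S4-POU5f1tm2Jae/J, an altered Pou5f1 locus. MEFs were made into iPSCs with doxycycline-inducible PiggyBac vectors, with 1.5 µg/ml doxycycline for 21 days. OE + EpEX iPSCs had received Oct4 and the epithelial cell adhesion molecule EpCAM together with its soluble extracellular domain, EpEX. KE + EpEX iPSCs had received Klf4 and EpCAM together with EpEX. OSKM iPSCs had received Oct4, Sox2, Klf4 and c-Myc. Reprogramming took place on feeder cells, which are mitomycin C-treated wild type MEFs, and MEFs and iPSCs were grown in different media (fetal bovine serum for MEFs, serum replacer with LIF for iPSCs). Each iPSC array is 1 clone. By title the MEF samples are biological replicates, but the series text names 1 primary culture, so the spread between them may be technical.

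The deposited values are log2 levels in which the median of every probe set over the 18 arrays is 0. A value of 1 is thus 2-fold above that probe set's median, and values of different probe sets cannot be set against each other. The values hold no call of detection, so it is not known whether a low member was present at all. In samples of whole cultures, fewer cells of a type and less RNA per cell cannot be told apart. The labelled cell types were checked against marker genes. Of 8 fibroblast markers 6 were named in the list of lower probe sets, of 9 pluripotency markers all 9 were in the list of higher ones, and 2 of 3 epithelial markers, Cdh1 and Epcam, were there too. MEF sample 1 stood apart from the other MEF samples. Over the whole list of lower probe sets its values were at a median of -1.84 from the mean of samples 2 and 3 on the log2 scale, and 352 of the 471 probe sets were at least 1 unit away, so the values of single MEF samples are given beside the contrasts for at least 1 probe set of each member gene.

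RefSeq start sites (build GRCm38.p6) were found for 24 of the 28 member genes, with Tmem180 under its current symbol Mfsd13a. The 250 bases before the start are shown for 6 genes on which the comparisons turn: the aquaporins of opposite direction, the calcium channel subunit and the exchanger that differed between iPSCs and mESCs, and the neighbours Tmem176a and Tmem176b. They run 5′ to 3′ on the strand of the gene, and capitals mark CG dinucleotides.
Aqp3 (chr4:41098184-41098433, minus strand): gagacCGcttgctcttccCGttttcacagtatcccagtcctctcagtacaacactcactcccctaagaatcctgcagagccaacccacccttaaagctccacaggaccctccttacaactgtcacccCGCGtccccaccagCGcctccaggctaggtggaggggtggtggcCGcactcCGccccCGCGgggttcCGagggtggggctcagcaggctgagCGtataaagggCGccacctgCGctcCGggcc
Aqp1 (chr6:55336049-55336298, plus strand): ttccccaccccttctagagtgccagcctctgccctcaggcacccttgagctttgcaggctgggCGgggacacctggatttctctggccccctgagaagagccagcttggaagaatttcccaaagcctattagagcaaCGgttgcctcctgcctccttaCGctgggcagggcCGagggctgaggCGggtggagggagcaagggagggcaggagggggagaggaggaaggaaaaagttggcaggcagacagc
Cacna2d1 (chr5:15934441-15934690, plus strand): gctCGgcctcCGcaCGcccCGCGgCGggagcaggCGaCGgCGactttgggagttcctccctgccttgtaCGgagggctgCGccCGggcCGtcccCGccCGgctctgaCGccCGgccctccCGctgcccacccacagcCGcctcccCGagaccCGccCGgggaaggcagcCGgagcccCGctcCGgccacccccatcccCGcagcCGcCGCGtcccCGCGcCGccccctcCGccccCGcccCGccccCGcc
Slc9b1 (chr3:135347779-135348028, plus strand): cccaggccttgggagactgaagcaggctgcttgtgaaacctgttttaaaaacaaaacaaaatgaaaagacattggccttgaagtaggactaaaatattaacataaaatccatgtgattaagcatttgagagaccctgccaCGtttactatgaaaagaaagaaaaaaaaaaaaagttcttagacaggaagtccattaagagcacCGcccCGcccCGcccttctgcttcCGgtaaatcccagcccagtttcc
Tmem176a (chr6:48841233-48841482, plus strand): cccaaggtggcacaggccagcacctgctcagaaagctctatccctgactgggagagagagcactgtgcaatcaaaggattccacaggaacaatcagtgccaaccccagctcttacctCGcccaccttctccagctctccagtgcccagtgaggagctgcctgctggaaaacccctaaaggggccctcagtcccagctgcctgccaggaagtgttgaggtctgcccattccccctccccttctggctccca
Tmem176b (chr6:48841138-48841387, minus strand): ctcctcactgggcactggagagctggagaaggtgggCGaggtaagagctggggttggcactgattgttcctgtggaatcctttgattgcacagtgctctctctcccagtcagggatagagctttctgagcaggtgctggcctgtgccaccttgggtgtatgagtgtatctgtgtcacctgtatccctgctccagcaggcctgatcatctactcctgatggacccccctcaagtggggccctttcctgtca
The windows differed in their number of CG dinucleotides. Cacna2d1 had 36, Aqp3 had 14, Aqp1 and Slc9b1 had 5 each, and Tmem176a and Tmem176b had 1 each. Among the 11 lower genes with a sequence the median was 23 (from 1 to 37), among the 13 higher genes it was 9 (from 0 to 18), and among all 27025 promoters of the table it was 6. The other calcium channel genes, Cacnb4 with 37 and Cacna2d3 with 30, the exchanger gene Slc24a3 with 35 and the inositol carrier gene Slc5a3 with 32 lay at the upper end. Tmem176a and Tmem176b are divergent neighbours on chromosome 6 with no protein-coding gene between them, and their windows shared 155 bases. The TATA box letters TATAAA, searched on both strands and present in 13% of all promoters, were in the windows of Aqp3 and Gjb5. The letters GGGTGTGG of a Klf motif, present in 3.19%, were in that of Tmem40, and the octamer ATGCAAAT, present in 1.61%, was in none of the 24.

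The water channels were swapped between fibroblasts and pluripotent cells. Aqp1, a pore for water, was high in MEFs, and Aqp3, a pore for water and glycerol, was high in mESCs and iPSCs. Aqp1 was at 4.46, 7.67 and 7.76 in the 3 MEF samples and between -0.51 and 1.83 in the other 15 arrays. Its mean difference from MEFs over the 4 other groups was -6.59, which is 96.6-fold and the largest of the lower members. All 3 probe sets of Aqp3 went the other way. On 1422008_a_at the MEF samples were at -6.21, -6.80 and -6.74 and the other arrays between -0.73 and 1.28, a mean difference of 6.69 or 103-fold. The probe sets 1450460_at (6.44) and 1422007_at (5.36) gave smaller differences in the same direction.

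The carriers of sugars and of inositol also went both ways. Slc2a3, the glucose transporter GLUT3, had the largest difference of all members. On 1455898_x_at it was at -7.88, -8.34 and -8.15 in MEFs and between -0.10 and 0.50 elsewhere, a mean difference of 8.23 or 300-fold. The probe set 1437052_s_at gave 7.95, while 1421924_at gave 4.53, so the size depended on the probe set. The suffixes x and s mark probes that may read more than 1 transcript. Slc2a13, a proton-coupled inositol carrier of the same family, was at 2.32, 5.09 and 5.22 in MEFs and between -0.14 and 0.25 in the other arrays, a mean difference of -4.22. Slc5a3, the sodium-coupled inositol carrier, was lower than in MEFs by -4.54 on 1435484_at, with MEF samples at 3.43, 4.76 and 4.85, and by -3.84 on 1440227_at. Among the members, the glucose carrier gene Slc2a3 and the inositol carrier genes Slc2a13 and Slc5a3 thus lay on opposite sides of the contrast.

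Amino acid carriers were found in both lists. Slc7a3, a carrier of cationic amino acids such as arginine, was at -3.28, -5.89 and -5.98 in MEFs and between -1.29 and 0.75 in the other arrays, with a mean difference of 4.92. Slc38a4, a sodium-coupled carrier of neutral amino acids from an imprinted gene, was at -1.98, -5.21 and -5.39 in MEFs and between -0.68 and 0.39 elsewhere, with a mean difference of 4.10. MEF sample 1 was thus well above the other MEF samples for both. Slc36a4, from a family of amino acid carriers, ran the opposite way with -4.50, and its MEF samples were at 3.75, 4.84 and 4.78.

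Carriers of inorganic ions and metals were likewise found in both lists. Slc39a4, the zinc importer ZIP4, was higher than in MEFs by 4.94, and its MEF samples lay close together at -4.96, -5.00 and -4.83. Slc41a2, a magnesium carrier, was lower by -4.24, with MEF samples at 4.09, 4.15 and 4.45. Slc9b1, of the family of sodium/proton exchangers, was higher by 4.79 on average, with MEF samples at -4.69, -4.22 and -4.40. Slc24a3, which exchanges sodium for calcium and potassium, was lower by -4.48, with MEF samples at 2.75, 5.16 and 5.50. In Slc39a4, Slc41a2 and Slc9b1 the MEF samples agreed within 1 log2 unit, and in Slc24a3 they did not.

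Some classes were in 1 list only. All 3 calcium channel genes were lower than in MEFs. These encode auxiliary subunits: Cacna2d1 and Cacna2d3 the alpha2-delta type and Cacnb4 a beta type. Cacna2d1 had mean differences of -4.72 on 1440397_at and -4.62 on 1433643_at, and its MEF samples were at 3.72, 4.81 and 4.72 on the first. Cacna2d3 had a mean difference of -4.69 and Cacnb4 of -3.70. For Cacna2d3 the MEF samples were at 0.60, 6.62 and 6.74, so that MEF sample 1 was 67.3-fold below the other MEF samples and lay 0.41 above the highest of the 15 pluripotent arrays. Cacnb4 showed the same order, with 1.07 in sample 1 against at least 4.92 in the others. Hence the size of the Cacna2d3 and Cacnb4 contrasts came from MEF samples 2 and 3.

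The connexin gene Gjb5, whose protein forms gap junctions, was higher than in MEFs by 4.48, and it was at -3.45, -4.85 and -5.07 in the MEF samples. Of the mitochondrial carriers, Slc25a31, an exchanger of ADP and ATP known from germ cells, was higher by 4.46, with MEF samples at -4.23, -4.20 and -4.30. Slc25a13, the aspartate/glutamate carrier citrin, was higher by 4.37, with MEF samples at -3.84, -4.37 and -4.96. The drug efflux pump gene Abcb1a (P-glycoprotein) was higher by 4.04, and its MEF samples were at -3.97, -4.08 and -3.70. In the Slc35 family, which holds the nucleotide sugar carriers, Slc35f2 was higher by 5.23, with MEF samples at -4.84, -5.14 and -5.46, and Slc35g1 by 3.90, with MEF samples at -3.89, -4.03 and -3.58. The MEF samples of Slc25a31, Abcb1a and Slc35g1 thus lay within 1 log2 unit of each other, and those of Gjb5 and Slc25a13 did not.

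The Tmem genes were split between the lists. Tmem176b had MEF values of 4.82, 6.55 and 6.65 and a mean difference of -5.95, or 61.7-fold. Its neighbour Tmem176a had mean differences of -5.07, -4.97 and -4.82 on its 3 probe sets, and on 1425603_at its MEF samples were at 3.70, 5.66 and 5.86. Tmem119, a membrane protein known from bone-forming cells and microglia, had a mean difference of -3.90, with MEF samples at 3.26, 4.21 and 4.09. In all 3 of these genes MEF sample 1 was the lowest. On the other side stood Tmem191c with 5.21 and 4.81 on its pair of probe sets, and its MEF samples were at -5.81, -4.75 and -5.13 on 1420191_s_at. Tmem180 was higher by 4.47, with MEF samples at -5.63, -4.22 and -3.61. Tmem40 was higher by 4.33, with MEF samples at -3.62, -4.45 and -4.96, and Tmem51 by 3.99, with MEF samples at -3.53, -4.23 and -3.79. MEF sample 1 was thus the lowest for Tmem191c and Tmem180 and the highest for Tmem40 and Tmem51. Tmem180 belongs to the major facilitator superfamily of carriers under its present name. Over all members, the median difference from MEFs was 4.79 for the 21 higher probe sets, beside 4.64 for the 477 of that list, and -4.58 for the 16 lower probe sets, beside -4.90 for the 471 of that list.

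**Figure D1:**
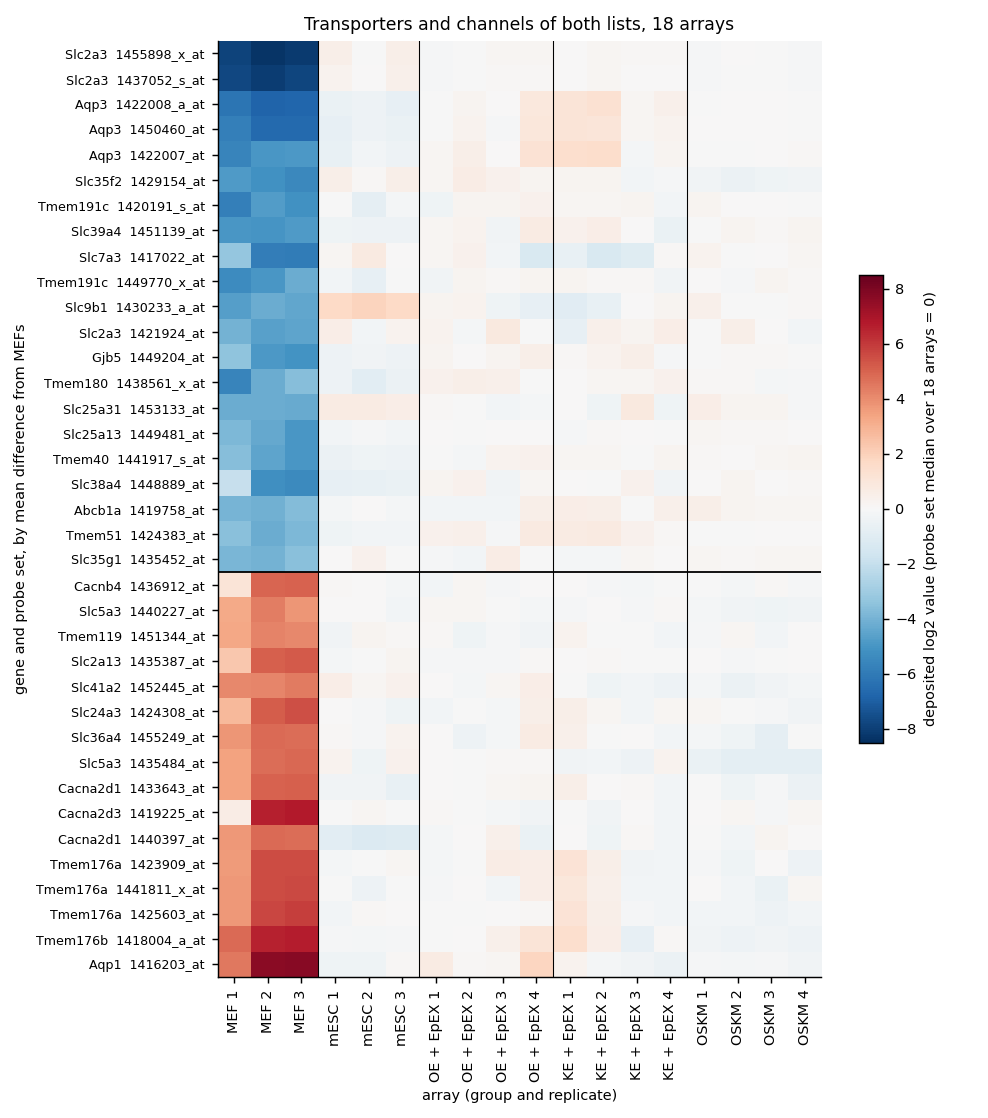
Deposited log2 values (colour, with 0 at the median of each probe set over the 18 arrays) of the 37 probe sets in rows and the 18 arrays in columns, ordered by mean difference from MEFs, with the higher list above the black line and the lower list under it. The 3 MEF columns carry the strong colours, from -8.34 for Slc2a3 to 7.76 for Aqp1, and Slc9b1 is the member for which the mESC columns stand out most, at 1.70 to 1.87.

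How far the contrasts depended on the MEF sample differed between the lists. For the lower members, MEF sample 1 was below both other samples in 16 of 16 probe sets, with a median of -1.84 from their mean, and 13 of the 16 were at least 1 log2 unit away. The largest gaps were -6.07 for Cacna2d3, -3.89 for Cacnb4, -3.25 for Aqp1 and -2.83 for Slc2a13, and the smallest was -0.21 for Slc41a2. For the higher members the median gap was 0.37, with sample 1 above both others in 12 of 21 and below both in 5. The widest of these were 3.32 for Slc38a4, 2.65 for Slc7a3 and, in the other direction, -1.71 for Tmem180. MEF samples 2 and 3 differed from each other by a median of 0.224 over the higher and 0.0996 over the lower members. With MEF sample 1 alone as the base, 16 of the 21 higher members but only 2 of the 16 lower members, Slc41a2 and Tmem176b, were 10-fold away in all 15 arrays. With MEF sample 2 alone these counts were 19 and 16, and with sample 3 alone 20 and 16. Why sample 1 stood apart was not tested.

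The members closest to the 10-fold limit, counting the array with the smallest difference from the MEF mean, were Cacnb4 at 11.1-fold, Slc9b1 at 11.2-fold, Slc38a4 at 11.4-fold and Tmem51 at 11.5-fold. Probe sets just outside the limit carry no symbol in the files, so no transporter among them can be named.

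**Figure D2:**
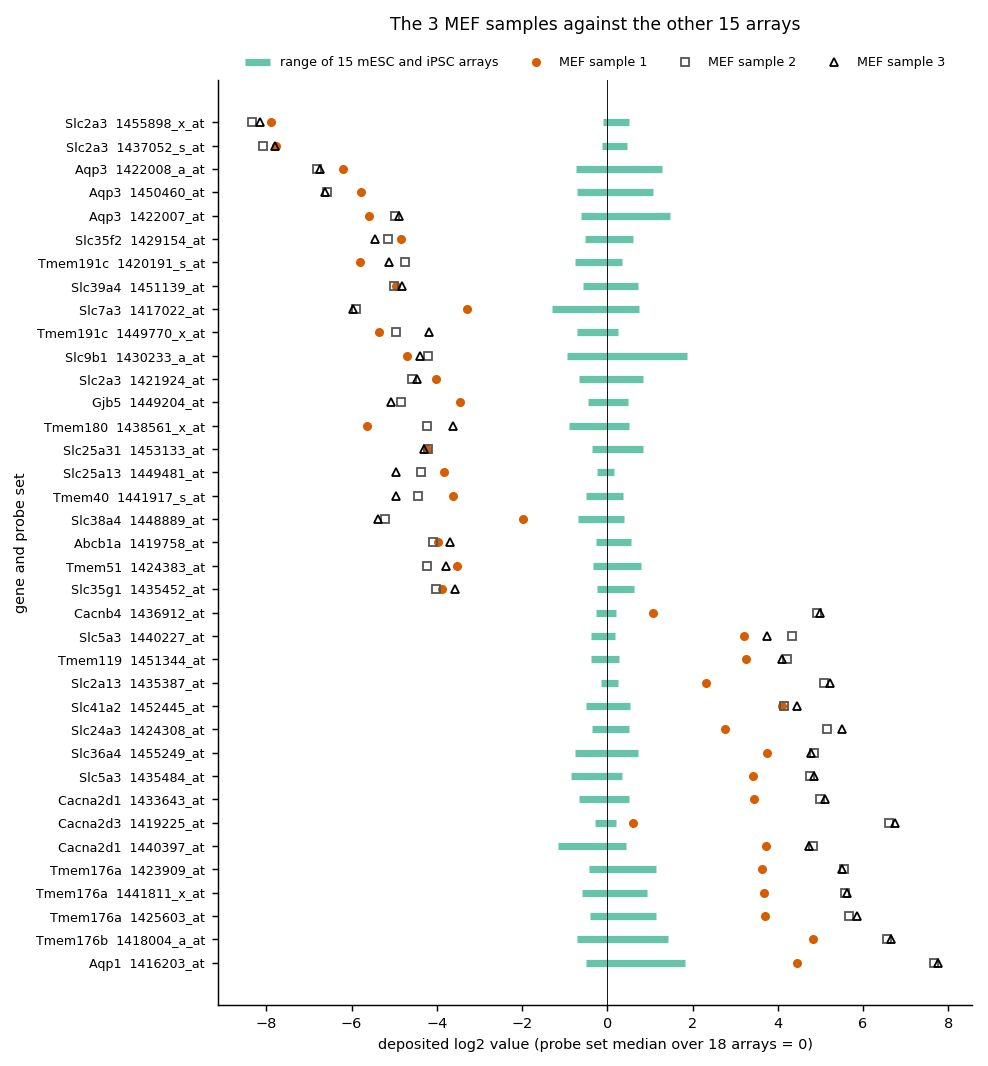
Deposited log2 value (horizontal axis) of MEF samples 1, 2 and 3 (circle, square and triangle) for each of the 37 probe sets (vertical axis), with a bar for the range of the 15 mESC and iPSC arrays. No MEF symbol lies inside a bar, but MEF sample 1 comes within 0.41 of it for Cacna2d3, where the other MEF samples are at 6.62 and 6.74.

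Among pluripotent cells, the next question was whether iPSCs carried the mESC levels of the members. The lists had left out any gene within 10-fold of the MEF mean in even 1 iPSC clone. Transporters that stayed near the MEF level were thus absent beforehand, and the counts say nothing about them. Most members did not pass the test and its 2-fold limit, while the water and glycerol channel Aqp3 and the calcium channel subunit Cacna2d1 were higher, and the exchanger Slc9b1 was lower, in at least 1 iPSC group. A member was called where limma, fitted to all 45037 probe sets of the 15 arrays, gave an adjusted p under 0.05 and a difference of at least 2-fold. OE + EpEX iPSCs had 1 of 37 members called against mESCs, where 3.43% of all probe sets were called. KE + EpEX iPSCs had 4 called, of 2 genes, where 3.89% of all probe sets were. OSKM iPSCs had 2 called, where 3.73% were. Of the 948 probe sets of the lists 7.28%, 7.59% and 7.07% were called in the same order. The OE + EpEX count was 3 without mESC clone 1 or without OE + EpEX clone 4, and 2 without any other OE + EpEX clone. Without mESC clone 2 the OSKM count was 3. For these fits with a clone left out, the share of all probe sets was not counted. All 3 comparisons use the same 3 mESC clones, so a value at which the mESCs stand apart enters each of them.

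Slc9b1 showed the largest difference of the members. It was at 1.71, 1.87 and 1.70 in the mESC clones, at 0.26, 0.27, -0.34 and -0.71 in OE + EpEX clones, at -0.95, -0.64, 0.02 and 0.24 in KE + EpEX clones and at 0.42, -0.06, -0.02 and 0.07 in OSKM clones. Every mESC clone thus lay above every iPSC clone. The difference was -1.89 ± 0.27 (SE; limma adjusted p = 0.000238) in OE + EpEX, -2.09 ± 0.27 (limma adjusted p = 8.56e-05) in KE + EpEX and -1.66 ± 0.27 (limma adjusted p = 0.000585) in OSKM iPSCs. The list required every iPSC clone to be at least 10-fold above the MEF mean, and the lowest Slc9b1 clone was at 11.2-fold.

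The connexin gene Gjb5 went the opposite way. It was at -0.44, -0.28 and -0.41 in mESC clones, at 0.21, 0.05, 0.23 and 0.48 in OE + EpEX clones, at 0.09, 0.31, 0.49 and -0.12 in KE + EpEX clones and at -0.05, 0.12, 0.09 and -0.05 in OSKM clones. All 12 iPSC clones were above all mESC clones. Gjb5 rose by less than 2-fold: by 0.63 in the OE + EpEX group (limma adjusted p = 0.00455), 0.57 with KE + EpEX (limma adjusted p = 0.00693) and 0.41 with OSKM (limma adjusted p = 0.0444).

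Aqp3 was called in KE + EpEX iPSCs on its 3 probe sets. On 1422008_a_at the mESC clones were at -0.56, -0.43 and -0.73, the KE + EpEX clones at 1.07, 1.28, 0.15 and 0.42, the OE + EpEX clones at 0.00, 0.25, 0.00 and 0.87 and the OSKM clones at -0.03, 0.02, 0.01 and -0.06. No iPSC clone fell into the mESC range, and the highest values were those of KE + EpEX clones 1 and 2 and OE + EpEX clone 4. The difference of KE + EpEX iPSCs from mESCs was 1.30 ± 0.24 (limma adjusted p = 0.00154) on this probe set, 1.19 ± 0.24 (limma adjusted p = 0.00321) on 1450460_at and 1.18 ± 0.35 (limma adjusted p = 0.0282) on 1422007_at. The call on 1422007_at was lost when KE + EpEX clone 1 (difference 0.95) or clone 2 (0.94), or mESC clone 1 (1.09) or clone 3 (1.17), was left out, and in a fit of the compared groups alone (limma adjusted p = 0.0947). After quantile normalization 1422007_at was at 0.98 and 1450460_at at 0.99, under 2-fold. None of the 3 was called by the t-test of the study's methods after adjustment, which gave an adjusted p of 0.104 on 1422008_a_at, 0.0977 on 1450460_at and 0.272 on 1422007_at. In OE + EpEX iPSCs the probe sets 1422008_a_at (0.85) and 1450460_at (0.84) passed the test under 2-fold (limma adjusted p = 0.0272 and 0.0308), and in OSKM iPSCs no Aqp3 probe set passed.

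Of the lower members, Cacna2d1 was called. On 1440397_at it was at -0.89, -1.16 and -1.10 in mESC clones, at 0.00, -0.20, 0.24 and 0.06 in OSKM clones, at -0.18, 0.03, 0.43 and -0.58 in OE + EpEX clones and at 0.00, -0.35, 0.10 and -0.26 in KE + EpEX clones. All iPSC clones lay above the mESC clones. The list required them to be at least 10-fold under the MEF mean, and the MEF samples were at 3.72 to 4.81. The difference was 1.08 ± 0.19 (limma adjusted p = 0.000976) in OSKM, 0.98 ± 0.19 (limma adjusted p = 0.00236) in OE + EpEX and 0.92 ± 0.19 (limma adjusted p = 0.00301) in KE + EpEX iPSCs, of which the first passed the 2-fold limit. After quantile normalization that difference was 0.67 (limma adjusted p = 0.0554). The other probe set, 1433643_at, gave 0.16 ± 0.16 in OSKM iPSCs (limma adjusted p = 0.575), whose clones overlapped with the mESC clones on it. There OE + EpEX (0.52) and KE + EpEX iPSCs (0.53) passed the test under 2-fold.

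**Figure D3:**
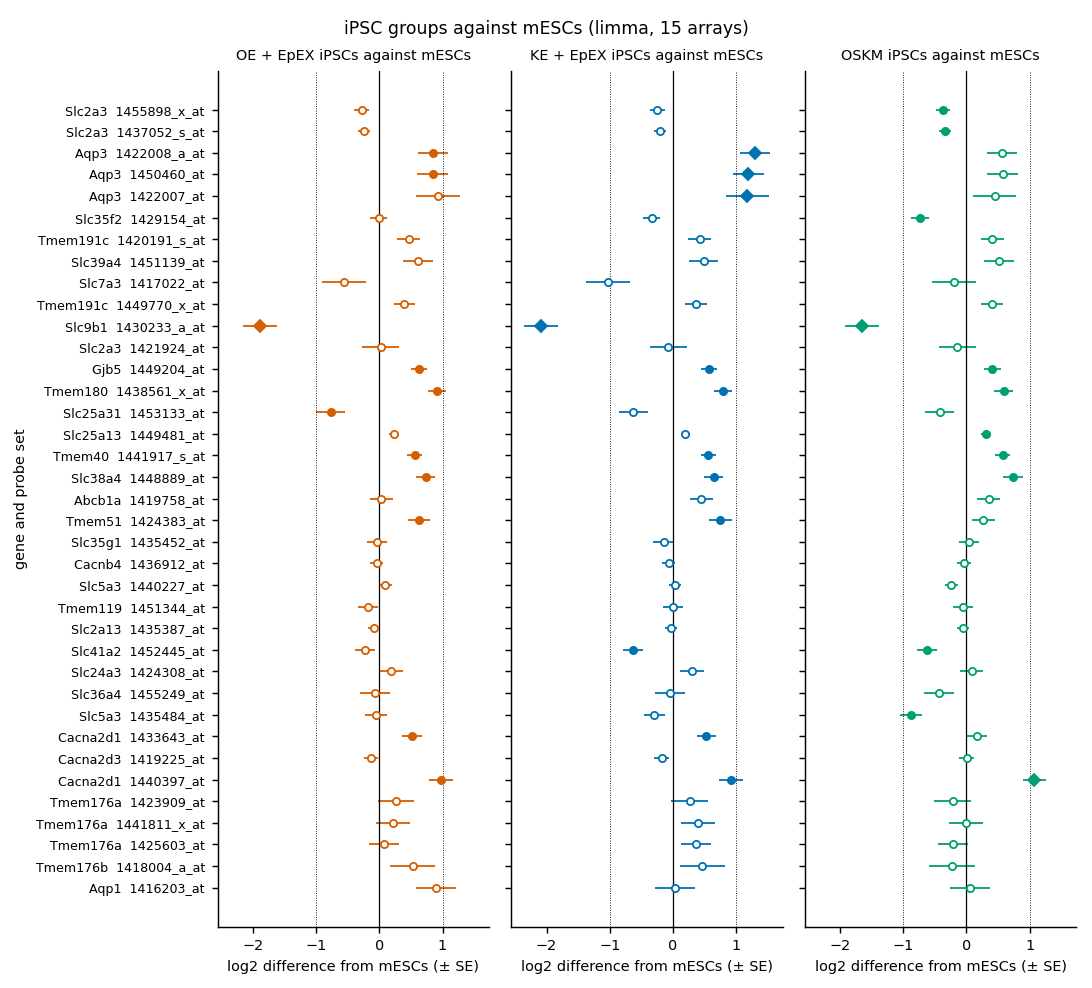
Log2 difference from mESCs with its standard error (limma, 15 arrays) for the 37 probe sets in the 3 iPSC groups (4 clones each, 3 mESC clones). Diamonds mark members called at an adjusted p under 0.05 and 2-fold, filled circles those past the adjusted p alone and open circles the others; dotted lines stand at 2-fold. Slc9b1 lies at -1.89, -2.09 and -1.66, left of all other members in each panel.

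Smaller differences were counted next. At an adjusted p under 0.05 without a fold limit, limma found 11 members in OE + EpEX (9 higher, 2 lower than in mESCs), where 14.2% of all probe sets passed (6.38% higher, 7.85% lower). The KE + EpEX group had 12 (10 higher, 2 lower), where 16.7% passed (6.63% higher, 10% lower). OSKM iPSCs also had 12, of which 6 were higher and 6 lower, where 17% passed (7.03% higher, 9.95% lower). The 948 probe sets of the lists passed more often than all probe sets, at 20.8%, 22.8% and 21.7% in the same order. Of the listed probe sets 11.6%, 11.8% and 11.7% were higher and 9.18%, 11% and 10% lower. Among the 21 members of the higher list, 7 were higher and 2 lower in OE + EpEX, 8 and 1 in KE + EpEX, and 5 and 4 in OSKM iPSCs. The median difference of the 21 higher members was 0.40, 0.42 and 0.35 in the 3 groups, while that of all probe sets was -0.05, -0.02 and -0.02. For the 948 probe sets of the lists it was 0.09, 0.09 and 0.01. For the 16 lower members it was 0.08, 0.03 and -0.06. The medians are given as descriptions, since members of 1 gene repeat each other and the mESCs are shared.

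Single members below 2-fold filled in this picture. The amino acid carrier gene Slc38a4 was higher by 0.73 with OE + EpEX, 0.65 with KE + EpEX and 0.74 with OSKM (limma adjusted p = 0.00417, 0.00816 and 0.00326), and its mESC clones were at -0.68, -0.62 and -0.57. Tmem180 was higher by 0.91, 0.80 and 0.59, and Tmem40 by 0.56, 0.56 and 0.57 in the same order, all past the adjusted p. Tmem51 passed in OE + EpEX (0.63) and KE + EpEX (0.75). Of the mitochondrial carrier genes, Slc25a31 passed in OE + EpEX alone, where it was lower (-0.77), and Slc25a13 in OSKM iPSCs alone, where it was higher (0.30). Lower than in mESCs were also the magnesium carrier gene Slc41a2 in KE + EpEX (-0.63) and OSKM (-0.63), and in OSKM iPSCs the glucose carrier gene Slc2a3 on 1437052_s_at (-0.34) and 1455898_x_at (-0.37). On 1455898_x_at the OSKM clones overlapped with the mESC clones. The remaining Slc2a3 probe set, 1421924_at, did not pass in OSKM iPSCs (-0.14, limma adjusted p = 0.826). The members that passed in none of these comparisons included Abcb1a, Slc35g1, Slc39a4, Slc7a3, Tmem191c, Aqp1, Cacna2d3, Cacnb4, Slc24a3, Slc2a13, Slc36a4, Tmem119, Tmem176a and Tmem176b. Their differences were not the smallest in each case, since Slc7a3 was at -1.02 ± 0.35 in KE + EpEX iPSCs (limma adjusted p = 0.0595) and Aqp1 at 0.90 ± 0.31 in OE + EpEX iPSCs (limma adjusted p = 0.0720).

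Clone ranges gave a view without a model. The 4 OE + EpEX clones did not overlap with the 3 mESC clones for 16 of 37 members, beside 24.2% of all probe sets. The KE + EpEX clones did not overlap with them for 12 members, beside 21.6%, and the OSKM clones for 19, beside 31.3%. In the higher list 10, 8 and 12 members lay above the mESC range (OE + EpEX first, then KE + EpEX, then OSKM), and 2, 1 and 3 lay below it. In the lower list 4, 2 and 1 lay above it and 0, 1 and 3 below. The shares of all probe sets were not split by direction, so none stands beside these counts.

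**Figure D4:**
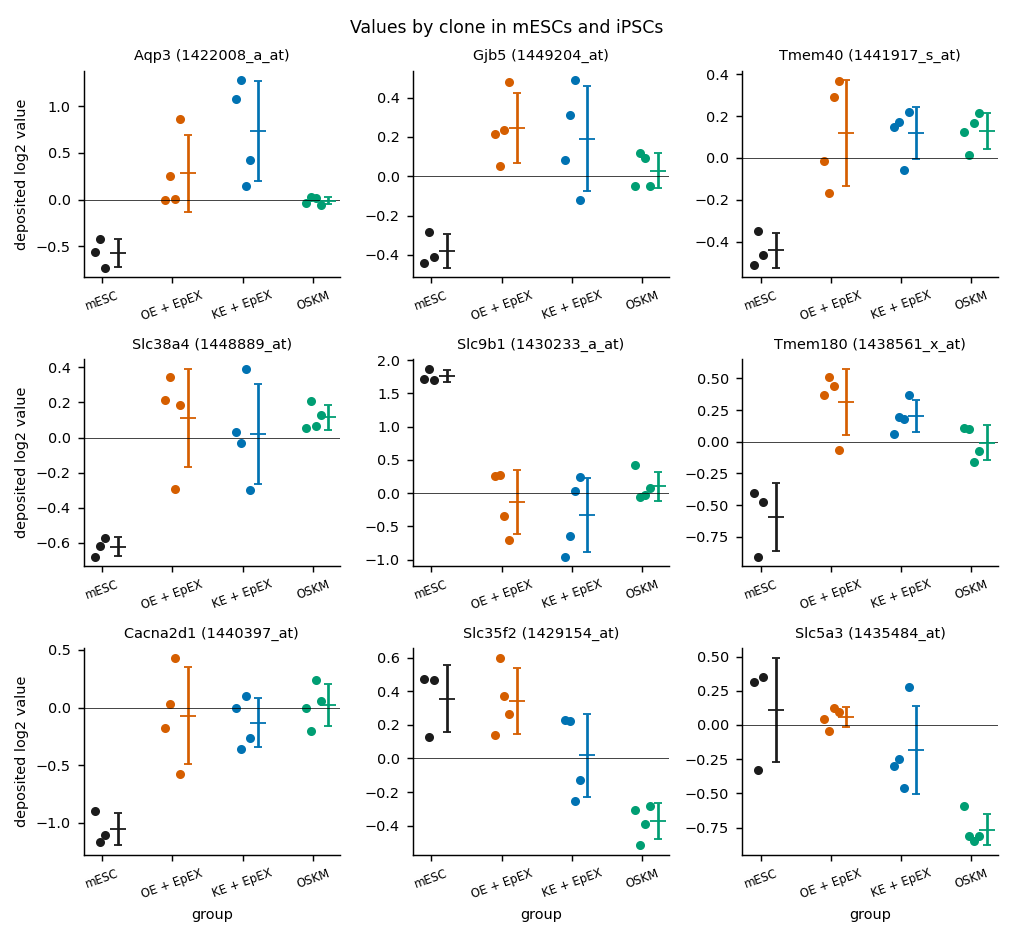
Deposited log2 values of each clone (points) with the group mean and SD (bar) in mESCs (3 clones), OE + EpEX, KE + EpEX and OSKM iPSCs (4 clones each) for 9 probe sets. The mESC clones lie apart from all iPSC clones for Aqp3, Gjb5, Tmem40, Slc38a4, Slc9b1, Tmem180 and Cacna2d1, and for Slc35f2 and Slc5a3 the OSKM clones lie lowest as a group.

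The iPSC groups were also compared with each other, to ask whether the way of reprogramming left a mark on transporter levels. Slc35f2 and Slc5a3 were lower in OSKM than in OE + EpEX iPSCs by less than 2-fold, and no member was called. In OE + EpEX against OSKM iPSCs limma called 0 members, with 0.0977% of all probe sets called. Without the fold limit 2 members passed, with 1.23% of all probe sets. The unadjusted limma p was under 0.05 for 9 members, and the t-test of the study's methods gave 7 such members and 1 after adjustment. In KE + EpEX against OSKM iPSCs limma called 0, with or without the fold limit, beside 0.00222% of all probe sets. Here 10 members had an unadjusted limma p under 0.05, and the same t-test gave 9 and, after adjustment, 0. In OE + EpEX against KE + EpEX iPSCs limma called 0 with either rule, as for all probe sets (0%). In this comparison 4 members had an unadjusted limma p under 0.05, and the t-test gave 0 before and 0 after adjustment. The share of all probe sets was not counted for the unadjusted limma p or for the t-test. Those member counts therefore cannot be read as a difference between the iPSC groups.

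Slc35f2 was at 0.14, 0.60, 0.37 and 0.27 in OE + EpEX clones and at -0.31, -0.52, -0.39 and -0.28 in OSKM clones, while the mESC clones were at 0.47, 0.13 and 0.47. All OSKM clones were below all OE + EpEX and mESC clones. The difference between OE + EpEX and OSKM iPSCs was 0.72 ± 0.13 (limma adjusted p = 0.0209), and OSKM iPSCs were lower than mESCs by -0.73 ± 0.14 (limma adjusted p = 0.00201). Slc5a3 on 1435484_at was at 0.04, -0.04, 0.13 and 0.10 in OE + EpEX clones and at -0.59, -0.81, -0.85 and -0.81 in OSKM clones, and at 0.31, -0.33 and 0.35 in mESC clones. Here too the OSKM clones lay under the range of the other groups. The difference between OE + EpEX and OSKM iPSCs was 0.82 ± 0.16 (limma adjusted p = 0.0271), and that of OSKM iPSCs from mESCs was -0.87 ± 0.17 (limma adjusted p = 0.00223). The other probe set of this inositol carrier gene, 1440227_at, did not pass, with 0.34 ± 0.09 (limma adjusted p = 0.0841) for OE + EpEX against OSKM.

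Clones of 1 group differed most in the EpEX groups. The median SD within a group was 0.310 in OE + EpEX, 0.277 in KE + EpEX, 0.152 in mESCs and 0.0896 in OSKM over the higher members, and 0.260, 0.285, 0.185 and 0.146 over the lower members, beside 0.148, 0.168, 0.140 and 0.115 over all probe sets. The widest members were Slc7a3, Aqp3, Aqp1 and the Tmem176 genes. Slc7a3 was at -1.29 in OE + EpEX clone 4 and at -0.64, -1.29 and -1.01 in KE + EpEX clones 1, 2 and 3, but at 0.10 in KE + EpEX clone 4 and between -0.25 and 0.38 in the other OE + EpEX clones. Aqp1 was at 1.83 in OE + EpEX clone 4 and at 0.67, 0.10 and 0.14 in clones 1, 2 and 3. Tmem176b was at 1.41 in KE + EpEX clone 1 and at 1.11 in OE + EpEX clone 4, and at -0.71 in KE + EpEX clone 3. Clones of 1 group thus spanned both high and low values of the same member.

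Fibroblast markers moved with part of this spread. The mean of the 9 fibroblast marker probe sets (6 genes), set against the median of the 15 arrays, was highest in KE + EpEX clone 1 (1.54) and OE + EpEX clone 4 (1.15), followed by KE + EpEX clone 2 (0.69), and lowest in KE + EpEX clone 4 (-0.61). In mESC clones it was between -0.24 and -0.02 and in OSKM clones between -0.04 and 0.21. Set against the MEF mean, KE + EpEX clone 1 was still at -4.27 and OE + EpEX clone 4 at -4.66. The lower members Tmem176b, Tmem176a and Aqp1 had their highest values in KE + EpEX clone 1 or OE + EpEX clone 4. So did Slc24a3, Slc36a4, Slc41a2, Tmem119 and, on 1433643_at, Cacna2d1. Slc41a2, however, was at 0.53 in both OE + EpEX clone 4 and mESC clone 1, and at -0.04 in KE + EpEX clone 1. Tmem119 was at 0.28 in KE + EpEX clone 1 but at -0.30 in OE + EpEX clone 4. Cacna2d3, Cacnb4, Slc2a13, Slc5a3 and, on 1440397_at, Cacna2d1 had their highest values in other arrays. Aqp3, a higher member, was also highest in KE + EpEX clone 1, OE + EpEX clone 4 and KE + EpEX clone 2. The cultures had feeder cells, and the part of fibroblast RNA in these values was not tested. Without KE + EpEX clone 1 and OE + EpEX clone 4, a choice made after seeing the data, the counts called against mESCs were 3 (OE + EpEX), 4 (KE + EpEX) and 2 (OSKM). The share of all probe sets was not counted in that fit, so these counts cannot be read as a result about the members. In that fit Slc9b1 was at -1.70, -1.89 and -1.66, and in KE + EpEX iPSCs Aqp3 was at 1.19 on 1422008_a_at, at 1.05 on 1450460_at and at 0.95 on 1422007_at, where its call was lost. The KE + EpEX count thus held 2 higher and 2 lower members, in place of 3 and 1.

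**Figure D5:**
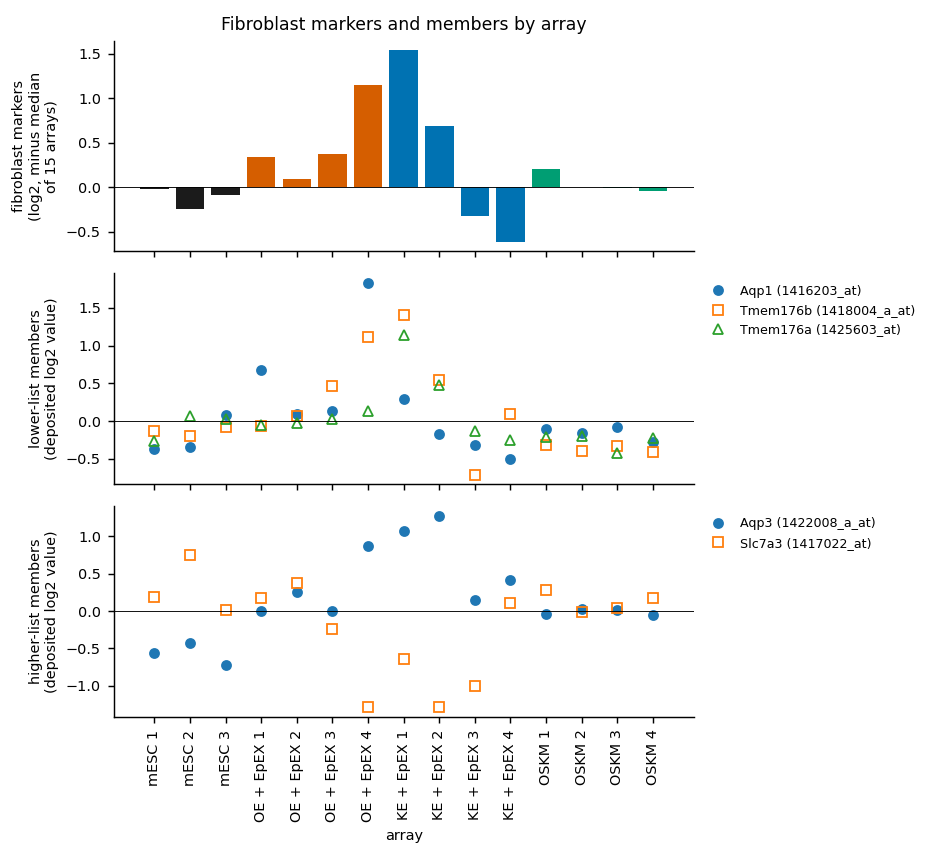
Mean of the 9 fibroblast marker probe sets minus its median over 15 arrays (top, log2), and deposited log2 values of the lower members Aqp1, Tmem176b and Tmem176a (middle) and the higher members Aqp3 and Slc7a3 (bottom) in each mESC and iPSC array. KE + EpEX clone 1 and OE + EpEX clone 4 have the highest fibroblast markers, 1.54 and 1.15, and the highest Tmem176b, 1.41 and 1.11.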

How the data were processed

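Total RNA of 18 cultures was labelled with biotin, per the labels, and hybridised to Affymetrix arrays. The submitters' processing notes name MAS5 and RMA, but not which step used which. The authors deposited a matrix of log2 values and lists of higher and lower probe sets with the same log2 values. Tested on the file, every probe set has its median over 18 arrays at 0 (largest deviation 5e-07), so absolute brightness is unknown and no filter on dim probes was possible; a filter on spread took its place. The fold columns of the lists, other values the authors deposited, hold their own comparisons and were not used. Array medians were between -0.031 and 0.07, 0 pairs of arrays were identical, and 64 control probe sets were left out. The number of arrays limits the precision.

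Members were taken by symbol prefix with Python 3.11.15 (numpy 2.4.6, pandas 2.3.3, scipy 1.17.1, matplotlib 3.10.9). Members, lists and tests were chosen with earlier results of these data known. limma 3.58.1 in R 4.3.3 (lmFit, eBayes) was fitted to 45037 probe sets of the 15 mESC and iPSC arrays with group means, and p was adjusted by Benjamini-Hochberg within each of 6 comparisons. Members called in any comparison, the 10 largest MEF contrasts of each list and families in both lists were to be named in full, and the other members once; here all 28 genes described are named. A further 2 probe sets that the prefix rule takes are not reported here and are in no count of members. Other transporter genes on the array were not counted, since no table used here names probe sets outside the lists. Promoter sequences are from RefSeq. On simulated data with 200 of 45037 probe sets changed, the OE + EpEX against mESC comparison recovered 98% of those changed by 1.5 log2 units, with 1 false call. Changes nearer the 2-fold limit were not simulated, so how many of those would be missed is not known. The simulated noise was drawn independently for each probe set and array, with no shift of a whole clone. Both rates may therefore not hold for the real arrays. Alternatives were the fold and p limits, quantile normalization, median centring, other arrays in the fit, a trend, the methods' t-test, a replicate block and leaving out each array.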

Additional observations from a re-analysis of the deposited data

Results flagged for a closer look

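In 3 of the 111 sets of 4 clones of 1 member, 1 clone stood far from the other 3, where chance at 1 in 20 gives 5.55. Abcb1a in OE + EpEX clone 4 was at 0.50 and the other clones between -0.26 and -0.22. Slc5a3 on 1435484_at in OSKM clone 1 was at -0.59 and the others between -0.85 and -0.81. Tmem176a on 1425603_at in OSKM clone 3 was at -0.42 and the others between -0.22 and -0.20.

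In the OE + EpEX against OSKM test given above, 2 members passed without the fold limit, beside 1.23% of all probe sets. The differences were 0.72 for Slc35f2 (limma adjusted p = 0.0209) and 0.82 for Slc5a3 on 1435484_at (limma adjusted p = 0.0271). For both members the 4 OSKM clones were below the 4 OE + EpEX clones. The other Slc5a3 probe set, 1440227_at, did not pass (0.34, limma adjusted p = 0.0841).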

How the results depend on the processing

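No member called against mESCs changed its direction under any alternative run, and Slc9b1 stayed called in the 3 iPSC groups under all of them. The counts of members called depended on the limits. With a 1.5-fold limit against mESCs they were 9 (OE + EpEX), 9 (KE + EpEX) and 7 (OSKM), and 2 in OE + EpEX against OSKM iPSCs, and with no fold limit 11, 12, 12 and 2. After quantile normalization they were 1 (0 higher, 1 lower), 2 (1 and 1) and 2 (0 and 2) against mESCs, where the splits had been 0 and 1, 3 and 1, and 1 and 1, and 1 in OE + EpEX against OSKM, and Cacna2d1 in OSKM was at 0.67. With arrays centred on their medians OE + EpEX had 2 (1 higher, 1 lower). The t-test of the study's methods had no fold limit, so its counts belong beside the limma counts of 11, 12, 12 and 2. With p under 0.05 and not adjusted, it gave 13, 13 and 19 against mESCs. It gave 7 in OE + EpEX against OSKM and 9 in KE + EpEX against OSKM. After adjustment it gave 2 in OE + EpEX, 3 in KE + EpEX (none of them Aqp3) and 15 in OSKM against mESCs. In OE + EpEX against OSKM it then gave 1. The share of all probe sets was counted for the main fit only, with the 2-fold limit and with no fold limit. Counts from the t-test, the 1.5-fold limit and all other alternatives therefore cannot be read as results about the members. Leaving out 1 array gave 1 to 3 (3 without mESC clone 1 or OE + EpEX clone 4, 2 without OE + EpEX clone 1, 2 or 3) in OE + EpEX, 3 to 5 in KE + EpEX, 2 to 3 (3 without mESC clone 2) in OSKM, and 0 in the comparisons between iPSC groups. The median difference of the higher members from MEFs was 4.47 with 1 probe set per gene, and 4.60 to 4.93 with a MEF sample left out; for the lower members that range was -5.16 to -4.31. With the replicate number as a block the counts were 2, 4 and 2, and 0 between iPSC groups. Without KE + EpEX clone 1 and OE + EpEX clone 4 together, chosen after seeing the data, OE + EpEX had 3. Over 21 same-numbered pairs r was between -0.36 and 0.25, with 2 above 0.1, and 4 of 15 arrays matched their own number best. The replicate numbers thus gave no clear sign of a pairing, and batches that do not follow them were not examined. The causes of these shifts were not tested, and without detection calls signal over background could not be weighed.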
